A study of Mus musculus with 9 samples.

Results

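Hnf4a, Hnf4g, Ppara, Rxra, Nr1h4, Esrra, Ppargc1a and Maf encode nuclear factors of the differentiated proximal tubule. Their RNA was measured in fluorescent cells sorted from mouse kidneys without injury, 48 h after ischemia-reperfusion injury and 14 days after it. The 8 genes were taken by symbol out of 55385 genes in the table, a choice made with earlier results of these data known, and all 8 were among the 15519 genes that passed the filter on low counts. Each of the 3 groups held 3 biological replicates from male mice (9 to 12 weeks old, 25 to 30 g). Uninjured cells came from Slc34a1IRES-CreERT2/+:R26RtdT/+ mice given tamoxifen. In these mice the tamoxifen-inducible Cre recombinase is driven by Slc34a1, a phosphate transporter gene of the proximal tubule, and its activity marks cells with the red fluorescent protein tdTomato. The 48 h and d14 groups came from Sox9IRES-CreERT2/+:R26RtdT/+ mice with injury of both kidneys, where Cre is driven by Sox9, a transcription factor gene of injured and progenitor epithelia. The 48 h mice received tamoxifen at the time of injury, and the d14 mice received it on days 10 and 12. Every mouse thus carried a heterozygous CreERT2 knock-in and a heterozygous tdTomato reporter. The Sox9 label follows Sox9 activity during tamoxifen and is not defined by a tubule segment. Driver, injury and tamoxifen schedule change together between uninjured and Sox9 cells, and the schedule differs again between 48 h and d14, so these cannot be told apart. The sources used here state no sham operation for uninjured mice. In RNA from a sorted population, fewer cells of a type and less RNA per cell cannot be told apart.

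HNF4A and its paralog HNF4G are nuclear receptors that bind the promoters of transporter, brush border and gluconeogenic genes, and HNF4A is required for the mature proximal tubule. PPARA is a fatty acid receptor that turns on peroxisomal and mitochondrial fatty acid oxidation, the main source of energy of proximal tubule cells. It binds DNA together with RXRA, which is also the partner of FXR, the bile acid receptor encoded by Nr1h4. ESRRA is an orphan receptor that, together with the coactivator PGC-1alpha encoded by Ppargc1a, turns on genes of mitochondrial respiration. MAF is a basic leucine zipper factor of the proximal tubule and has been tied to Gpx3, the gene of a secreted glutathione peroxidase.

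All 8 genes are annotated as protein-coding, and positions are 1-based in GRCm38 (mm10). Hnf4a lies on chromosome 2 from 163506808 to 163572910 (plus strand) and Rxra on chromosome 2 from 27676440 to 27762957 (plus). Hnf4g lies on chromosome 3 from 3508030 to 3658052 (plus) and Ppargc1a on chromosome 5 from 51454250 to 51567726 (minus). Maf lies on chromosome 8 from 115682942 to 115707794 (minus), Nr1h4 on chromosome 10 from 89454234 to 89533585 (minus), Ppara on chromosome 15 from 85734983 to 85802819 (plus) and Esrra on chromosome 19 from 6910977 to 6921813 (minus). Exons of Esrra overlap those of Trmt112 on the opposite strand by 73 bases, with 23642 counts assigned to Esrra and 6151 to Trmt112 over the 9 libraries. Exons of Maf overlap the antisense gene Gm15655 by 440 bases, with 100625 counts against 43. The libraries were strand-specific, but how the counting treated strand was not stated in the sources used here.

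Promoter stretches are shown for 3 starts: Nr1h4 and Rxra, whose stretches hold a nuclear receptor motif and which were lowest at d14, and Ppargc1a, which was highest there. Each stretch holds the 250 bases before a RefSeq transcription start (GRCm38.p6), read 5′ to 3′ on the gene's strand. Of the 8 genes, 6 were matched in the RefSeq promoter table, with 8 starts in all. Capitals mark AGGTCA, the core of the nuclear receptor motif, searched on both strands (its reverse complement reads TGACCT).
Nr1h4, chr10:89506659-89506908, minus: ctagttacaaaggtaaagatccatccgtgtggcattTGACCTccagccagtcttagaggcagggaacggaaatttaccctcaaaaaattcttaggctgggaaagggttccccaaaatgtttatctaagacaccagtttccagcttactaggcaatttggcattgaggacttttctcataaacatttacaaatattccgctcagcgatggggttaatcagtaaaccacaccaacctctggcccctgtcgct
Rxra, second start, chr2:27709042-27709291, plus: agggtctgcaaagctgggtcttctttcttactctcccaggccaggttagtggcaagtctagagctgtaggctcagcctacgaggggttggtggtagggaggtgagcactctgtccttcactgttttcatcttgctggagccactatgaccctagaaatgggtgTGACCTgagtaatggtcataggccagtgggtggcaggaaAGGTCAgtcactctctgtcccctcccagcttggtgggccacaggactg
Ppargc1a, chr5:51567726-51567975, minus: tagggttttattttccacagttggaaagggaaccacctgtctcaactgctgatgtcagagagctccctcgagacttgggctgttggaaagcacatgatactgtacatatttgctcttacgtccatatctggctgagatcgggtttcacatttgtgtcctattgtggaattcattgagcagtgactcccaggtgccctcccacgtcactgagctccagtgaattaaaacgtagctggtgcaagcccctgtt
Nr1h4 holds the core at bases -214 to -209 counted back from the start. The second Rxra start holds it at -87 to -82 and at -48 to -43. It does not occur in the Ppargc1a stretch, nor in those of Ppara, Esrra, the first Rxra start and both Hnf4a starts. Among 32851 mouse promoters of the same length, 14% hold it. These matches describe letters only, and binding was not measured here.

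Libraries held 31585507 to 51631204 counts without injury, 8036054 to 23794029 at 48 h and 19239354 to 30414758 at d14, with 48 h replicate 2 the shallowest. Mitochondrially encoded genes took 25.1% to 29.2% of the counts without injury, 32.7% to 39.2% at 48 h and 15.2% to 25.2% at d14. With these genes removed before scaling, 3, 7 and 8 of the 8 factors were called in the 3 comparisons, as with them. Levels are in CPM, counts normalised to library sizes that were scaled by TMM, a correction for RNA composition, and each difference was tested with edgeR's quasi-likelihood test, Benjamini-Hochberg adjusted over all 15519 genes. A gene is called at an adjusted p under 0.05, and ± after a log2 fold change is its standard error. The summed level of 12 proximal tubule markers was 16205 to 18917 CPM in uninjured cells, 5090 to 11545 CPM at 48 h and 2984 to 4405 CPM at d14. No proximal tubule marker was called higher in either comparison with uninjured cells, while 7 were lower at 48 h and 10 at d14. Markers of the thick limb of the loop of Henle summed to 386 to 489 CPM, 850 to 1093 CPM and 3061 to 5651 CPM. These 8 markers did not all move with their sum. Against uninjured cells, 5 were called higher and 1 lower at 48 h. At d14, 6 were called higher and 1 lower against uninjured cells, and likewise 6 and 1 against 48 h. Markers of the distal convoluted and connecting tubule went from 194 to 256 CPM over 545 to 791 CPM to 3311 to 4564 CPM, with 7 of 7 called higher at d14 against both other groups. Tubular injury markers summed to 331 to 534 CPM, 10738 to 24022 CPM and 11462 to 15404 CPM. Neutrophil markers summed to 2.80 to 8.0 CPM in uninjured cells, 113 to 343 CPM at 48 h and 3.43 to 5.90 CPM at d14, and Ly6g among them was at 0 in uninjured cells. Endothelial markers reached 667 CPM in 48 h replicate 1 against 77.3 CPM in the lowest 48 h library. Their part in the results on the 8 factors was not tested. Slc34a1, by which uninjured cells were marked, was at 4626 to 4807 CPM in uninjured cells, 1147 to 4404 CPM at 48 h and 994 to 1653 CPM at d14. Sox9, by which the other cells were marked, was at 0.274 ± 0.318, 14.9 ± 7.28 and 33.2 ± 5.07 CPM (SD, n = 3, as for every mean ± SD of a level or ratio here).

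**Figure D1:**
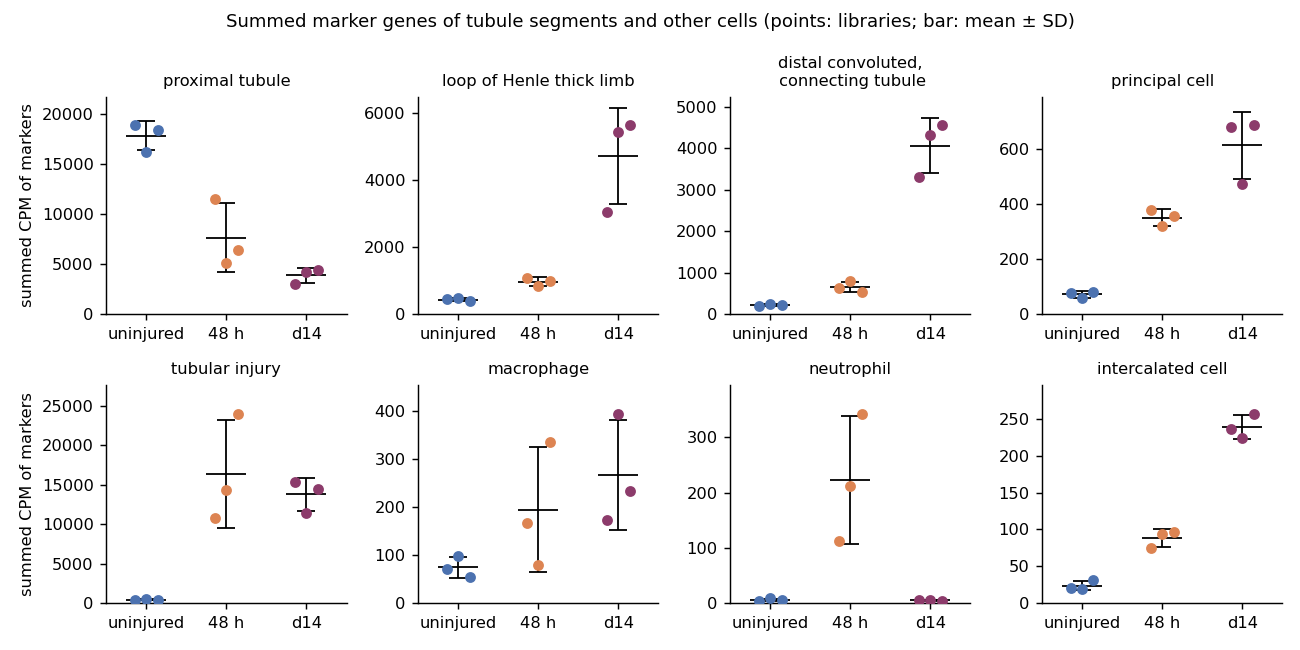
Summed CPM of marker genes for 8 cell types or states in each library (points, replicates 1 to 3 from left) with the mean and SD of each group (bar), on linear axes from 0. The proximal tubule sum was at most 4405 CPM in each d14 library and at least 16205 CPM in each uninjured one, and the sums of the distal segments were highest at d14.

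Of the 8 factors, 7 were lowest at d14 and Ppargc1a was highest there. Against uninjured cells, 3 of 8 were lower at 48 h (Hnf4a, Rxra and Maf), beside 11.7% of all tested genes, and 7 of 8 were lower at d14, beside 20.7%. From 48 h to d14, 7 of 8 were lower, beside 16.3% of all genes, and Ppargc1a was higher, beside 16.8% (33.1% of all genes were called in either direction). Groups did not overlap at 48 h for 5 of 8, all lower than uninjured, as for 20.8% of all genes lower without overlap. At d14 this held for 7 of 8 lower, beside 28.9% of all genes (34.4% were higher without overlap). Against 48 h it held for all 8, 7 of them lower, beside 20.6%, and Ppargc1a higher, beside 26.7%. The median log2 fold change of the 8 was -0.49 at 48 h, where that of all genes was 0.02. It was -1.76 at d14 against uninjured cells (all genes 0.06) and -0.87 at d14 against 48 h (all genes 0.05). The comparisons share libraries, so their values are given side by side and not as repeats. No member changed its sign under any of the 18 alternative analyses of each comparison.

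**Figure D2:**
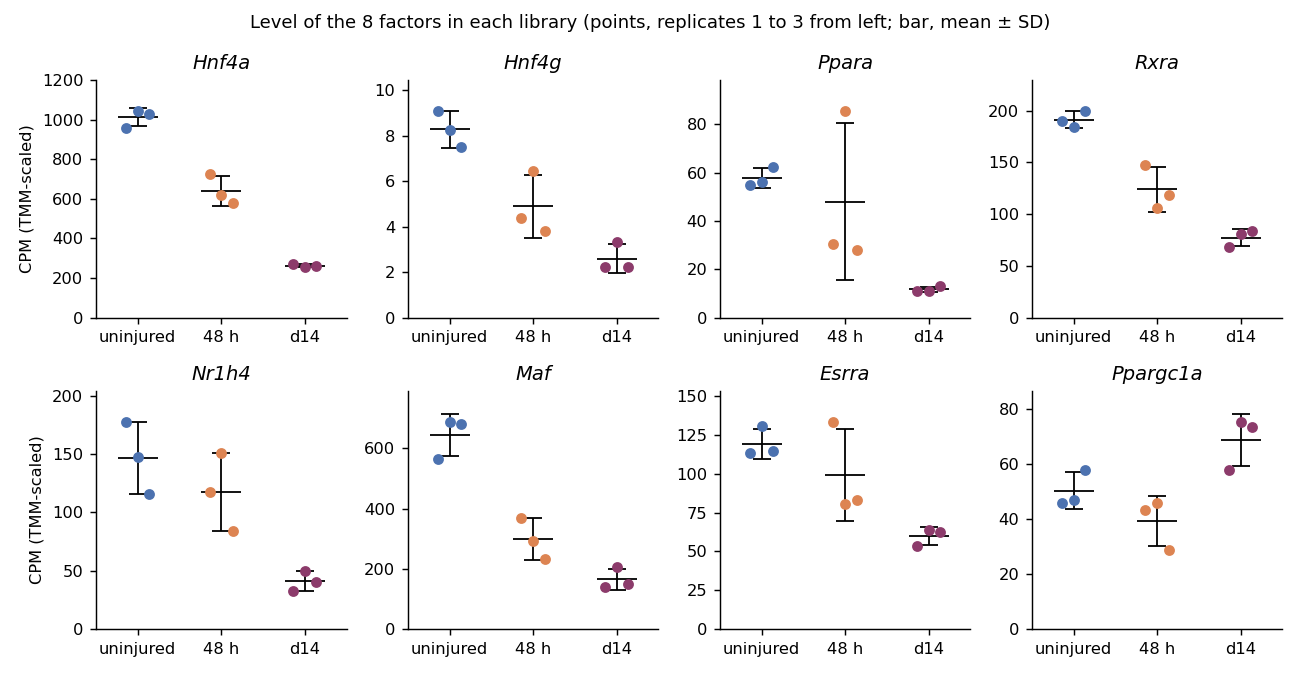
CPM of the 8 factors in each of the 9 libraries (points, replicates 1 to 3 from left) with the mean and SD of each group (bar), on linear axes from 0. Hnf4a ran from 1012 CPM in uninjured cells to 262 CPM at d14 with little spread, Ppara stood high in 48 h replicate 2 at 85.7 CPM, and Ppargc1a had its highest mean at d14.

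**Figure D3:**
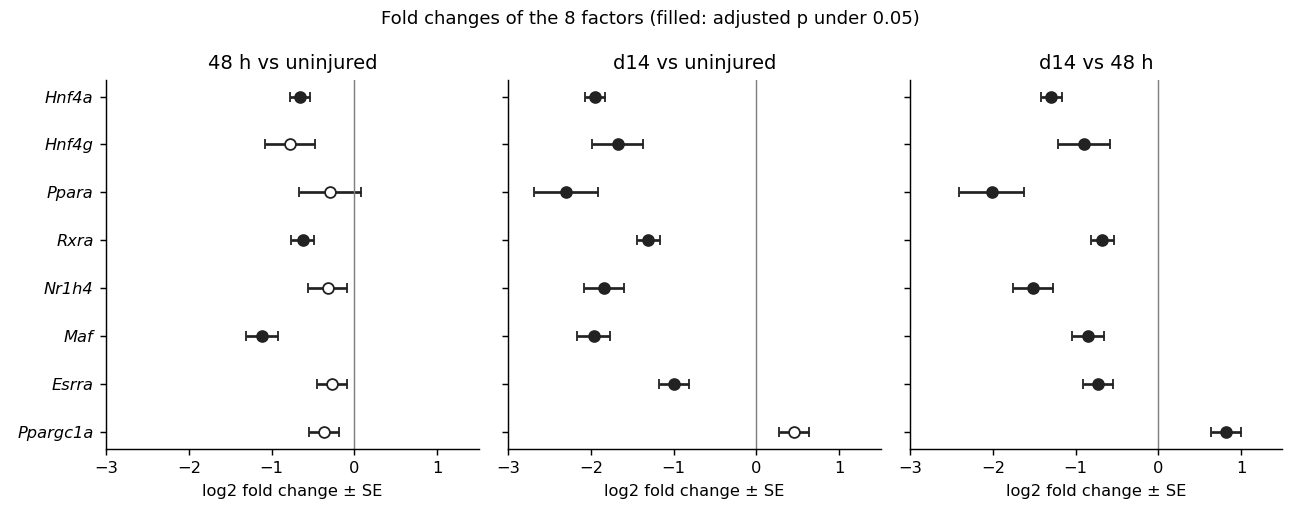
Log2 fold changes (points) with standard errors (bars) of the 8 factors in the 3 comparisons, filled where the adjusted p was under 0.05. At d14 against 48 h all 8 points are filled, 7 on the left of 0 and Ppargc1a on the right at 0.82.

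To set the factors against each other, CPM were divided by the length of the union of exons. In uninjured cells Hnf4a led with 209.6 ± 9.52 CPM per kb, ahead of Maf with 78.1 ± 8.42 and Nr1h4 with 63.8 ± 13.5 CPM per kb. The uninjured libraries of Maf and Nr1h4 overlapped. Rxra followed with 35.0 ± 1.44, Esrra with 27.3 ± 2.21, Ppara with 15.1 ± 1.06, Ppargc1a with 7.61 ± 1.02 and Hnf4g with 3.15 ± 0.306 CPM per kb. At 48 h Nr1h4 stood at 51.0 ± 14.7 CPM per kb above Maf at 36.1 ± 8.47, and Rxra (22.7 ± 3.93) was level with Esrra (22.6 ± 6.78). At d14 Hnf4a still led with 54.2 ± 1.74 CPM per kb and Hnf4g was still last with 0.985 ± 0.242. Maf (20.0 ± 4.21), Nr1h4 (17.8 ± 3.72), Rxra (14.2 ± 1.54) and Esrra (13.7 ± 1.30) followed, and the libraries of neighbours among these 4 overlapped. Ppargc1a, at 10.4 ± 1.44 CPM per kb, lay below them without overlapping Esrra and had passed Ppara at 3.05 ± 0.286.

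Hnf4a was at 959, 1045 and 1031 CPM without injury, at 727, 618 and 577 CPM at 48 h and at 270.2, 253 and 262 CPM at d14. The 3 groups did not overlap. The log2 fold change was -0.66 ± 0.12 at 48 h (edgeR adjusted p = 0.00238) and -1.95 ± 0.13 at d14 (adjusted p = 5.10e-07), so that d14 cells held 25.9% of the uninjured level. The step from 48 h to d14 was -1.29 ± 0.12 (adjusted p = 5.31e-05). These calls held under all 18 alternatives.

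Hnf4g was far lower, at 9.10, 8.25 and 7.49 CPM without injury, 4.38, 6.47 and 3.83 CPM at 48 h and 2.22, 3.33 and 2.23 CPM at d14. The groups did not overlap, but each injured library rested on only 45 to 84 counts. Hnf4g fell by 1.68 ± 0.31 on the log2 scale at d14 against uninjured cells (edgeR adjusted p = 9.62e-04). Its value of -0.78 ± 0.30 at 48 h missed the threshold (adjusted p = 0.0774). The difference of -0.90 ± 0.31 between d14 and 48 h passed narrowly (adjusted p = 0.0453), and 12 of 18 alternatives did not call it, with adjusted p from 0.0135 to 0.428 over all 18. Per kb of exon, Hnf4a exceeded Hnf4g 67.1 ± 8.92 times without injury, 74.9 ± 20.2 times at 48 h and 57.3 ± 13.7 times at d14, ratios that overlapped between all groups (exact two-sided permutation p = 0.3 to 0.7).

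Among 31 proximal tubule genes tied to HNF4A, 20 were lower and 2 higher at 48 h, 31 of 31 were lower at d14, and 27 were lower and none higher at d14 against 48 h. Over all tested genes, 11.7% were lower and 17.4% higher at 48 h. At d14, 20.7% of all genes were lower, and 16.3% at d14 against 48 h. The list's median log2 fold changes were -0.91, -2.27 and -1.37, beside 0.02, 0.06 and 0.05 over all genes. The list shares genes with the proximal tubule markers above, among them Slc34a1, by which uninjured cells were marked. Its fall and that of the markers are therefore not separate results. The organic anion transporter gene Slc22a8 went from 764 to 133 CPM at 48 h and 74.8 CPM at d14 (log2 fold change -3.35 ± 0.24 at d14, edgeR adjusted p = 1.18e-06). Fbp1, the gluconeogenic fructose bisphosphatase, fell by 2.89 ± 0.15 at d14 (adjusted p = 1.14e-07) and Slc6a19, a neutral amino acid transporter gene, by 3.46 ± 0.23 (adjusted p = 5.64e-07). Pdzk1, a scaffold of brush border transporters, was at 1128 CPM without injury, at 998 CPM at 48 h (not called), and fell to 248 CPM at d14. The urate and phosphate transporter gene Slc17a1 fell by 2.01 ± 0.14 at d14 (adjusted p = 9.48e-07). The 2 genes called higher at 48 h, chosen after their values were seen, were Pck1, the gluconeogenic PEP carboxykinase (1.84), and the brush border protocadherin Cdhr2 (0.72). The list held 0 genes called higher without 48 h replicate 2, where Pck1 was at 0.94 and Cdhr2 at 0.65, and 0 without 48 h replicate 3. Without 48 h replicate 1 it held 1.

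Ppara was at 54.8, 56.2 and 62.4 CPM in uninjured cells and at 11.1, 11.0 and 13 CPM at d14. At 48 h it was at 30.6, 85.7 and 27.9 CPM, so that replicate 2, the shallowest library with 596 counts for Ppara, lay above every uninjured library and the other two lay below them. The log2 fold change at 48 h was -0.29 ± 0.37 (edgeR adjusted p = 0.608), and without 48 h replicate 2 it was -0.98 and called. The adjusted p ran from 3.09e-04 to 0.985 over the alternatives. At d14 Ppara fell by 2.30 ± 0.39 against uninjured cells (adjusted p = 0.00118) and by 2.01 ± 0.39 against 48 h (adjusted p = 0.00499). By value these were the largest falls among the 8 factors. The first lay within its standard error of Maf (-1.97) and Hnf4a (-1.95). Without 48 h replicate 2 the fall against 48 h was -1.32 and still called. That lay inside the ranges of Hnf4a (-1.36 to -1.19) and Nr1h4 (-1.71 to -1.29) with single libraries left out.

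The PPARA targets were in turn highest in the same library. Their summed level was 6324, 5275 and 4830 CPM without injury, 4453, 13441 and 4632 CPM at 48 h and 1982, 2254 and 2409 CPM at d14. Of 29 tested targets, 5 were higher and 1 lower at 48 h against uninjured cells, beside 17.4% higher and 11.7% lower among all tested genes, so the share higher was near that of all genes. Their median log2 fold change was 0.65, and 0.02 over all genes. Without 48 h replicate 2, 3 were higher and 6 lower and the median was 0.14, and without 48 h replicate 1, 12 were higher and 1 lower. They included Pdk4, which restrains glucose oxidation (3.56), the lipid droplet gene Plin2 (1.70), the acylcarnitine carrier gene Slc25a20 (1.2) and, chosen after its value was seen, the fatty acid binding Fabp1 (4.53, on 29 counts in uninjured cells). Pdk4 was at 25.1, 146 and 39.2 CPM at 48 h against 3.55 to 7.06 CPM in uninjured cells. The peroxisomal thiolase gene Acaa1a was the one called lower at 48 h (-0.64 ± 0.13, edgeR adjusted p = 0.00368).

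By d14, 14 of 29 PPARA targets were lower and none higher than in uninjured cells, and 22 were lower and none higher than at 48 h, with medians of -1.13 and -1.78. Over all genes, 20.7% were lower and 25.1% higher at d14 than in uninjured cells, and 16.3% and 16.8% against 48 h. With library size as the only scaling the splits of the targets were 10 lower and 2 higher, and 18 lower and 1 higher. The first count ran up to 20 lower without 48 h replicate 2. Against 48 h, leaving out that library gave 20 lower and 0 higher, and the median moved from -1.78 to -1.17. Acadm, the medium-chain acyl-CoA dehydrogenase, fell by 1.77 ± 0.22 against uninjured cells (edgeR adjusted p = 5.63e-05). The fatty acid transporter gene Cd36 was at 209 CPM, 301 CPM and 41.4 CPM in the 3 groups and fell by 2.86 ± 0.36 from 48 h to d14 (adjusted p = 4.85e-04). Decr1, needed to oxidise unsaturated fatty acids, fell by 2.25 ± 0.35 over the same step (adjusted p = 0.00137) and Acadvl, the very long-chain dehydrogenase, by 1.47 ± 0.24 (adjusted p = 0.00135). Both were highest in 48 h replicate 2, with Decr1 at 162, 452 and 215 CPM and Acadvl at 228, 486 and 289 CPM at 48 h.

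Rxra, the shared partner, was at 189.7, 185 and 200.01 CPM without injury, 148, 106 and 118 CPM at 48 h and 67.9, 80.5 and 83.8 CPM at d14, with no overlap between groups. It fell by 0.63 ± 0.14 at 48 h (edgeR adjusted p = 0.00637) and by 1.31 ± 0.14 at d14 (adjusted p = 1.97e-05). The step from 48 h to d14 was -0.68 ± 0.14 (adjusted p = 0.00386), and with library size as the only scaling, which moved the median of all genes to 0.63, it was -0.12 and not called. Its paralog Rxrb was called in no comparison (-0.30 ± 0.12 at 48 h, adjusted p = 0.0996, and -0.16 ± 0.12 at d14, adjusted p = 0.313). The ratio of Rxra to Rxrb per kb went from 3.80 ± 0.425 over 3.00 ± 0.146 to 1.70 ± 0.118, without overlap between groups. Ppara to its paralog Ppard went from 2.57 ± 0.752 over 5.73 ± 3.93 to 0.992 ± 0.153, and only the d14 libraries lay apart from the others. Ppard itself fell by 1.48 ± 0.21 at 48 h (adjusted p = 3.96e-04) and by 1.00 ± 0.20 at d14 (adjusted p = 0.00165).

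Nr1h4, which encodes FXR, was at 178, 147 and 116 CPM without injury, 117, 151 and 83.9 CPM at 48 h and 32.8, 49.9 and 40.2 CPM at d14. Uninjured and 48 h libraries overlapped, and all d14 libraries lay below both. The log2 fold change was -0.33 ± 0.23 at 48 h (edgeR adjusted p = 0.331), -1.84 ± 0.24 at d14 (adjusted p = 1.16e-04) and -1.52 ± 0.24 between d14 and 48 h (adjusted p = 0.00105). Both calls at d14 held under all 18 alternatives.

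FXR targets did not move as one group. Of 13 tested, 4 were higher (Aqp2, Fetub, Kng1 and Nr0b2) and 1 lower (Fgfr4) at 48 h, beside 17.4% and 11.7% of all genes. At d14, 5 were higher than in uninjured cells (the same with Cyp7b1, chosen after its value was seen) and 4 lower (Abcc2, Ces1f, Fgfr4 and Slc51b), beside 25.1% and 20.7% of all genes. Against 48 h, Kng1 and Nr0b2 were higher and Abcc2, Ces1f and Slc51b lower, beside 16.8% and 16.3% of all genes. Over the alternatives, the counts of targets at 48 h ran from 1 to 5 higher and from 1 to 4 lower. At d14 against uninjured cells they ran from 4 to 5 higher and from 4 to 6 lower. Fetub, a fetuin gene, had 4, 0 and 0 counts in uninjured libraries and 49, 24 and 78 at d14. Slc51b, a subunit of the basolateral bile acid exporter, was at 24.6 CPM in uninjured cells, 27.1 CPM at 48 h and 7.63 CPM at d14, and fell by 1.82 ± 0.17 from 48 h to d14 (edgeR adjusted p = 4.94e-05). The apical conjugate pump gene Abcc2 fell by 1.31 ± 0.19 over that step (adjusted p = 4.56e-04) and the carboxylesterase gene Ces1f by 1.85 ± 0.42 (adjusted p = 0.00971). Fgfr4, a fibroblast growth factor receptor gene, fell by 0.94 ± 0.19 at 48 h (adjusted p = 0.00338). Aqp2, the water channel of principal cells, went from 4.65 to 107 CPM at 48 h. The principal cell markers, which include Aqp2, summed to 59.6 to 81.2 CPM in uninjured cells and to 320 to 379 CPM at 48 h. Aqp2 held 107 CPM of their mean sum of 352 CPM at 48 h, so that sum is not a separate course. Kng1, a kininogen gene, had 3, 0 and 0 counts in uninjured libraries and 250, 82 and 383 at d14. Nr0b2, which encodes the corepressor SHP, had 1, 0 and 0 counts without injury, 3, 0 and 8 at 48 h and 46, 79 and 58 at d14, so its highest d14 level was 3.13 CPM.

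Esrra was at 113, 131 and 115 CPM without injury, 133, 80.9 and 83.1 CPM at 48 h and 53.5, 64.1 and 62.5 CPM at d14. The 48 h libraries spanned the uninjured range, with replicate 1 above it, and all d14 libraries lay below every other library. The log2 fold change was -0.27 ± 0.18 at 48 h (edgeR adjusted p = 0.300), and without 48 h replicate 1 it was -0.55 and called, with adjusted p from 0.00781 to 0.613 over the alternatives. Esrra fell by 0.99 ± 0.18 at d14 against uninjured cells (adjusted p = 9.64e-04). The step from 48 h was -0.73 ± 0.18 (adjusted p = 0.0111), and -0.15 and not called with library size as the only scaling.

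Ppargc1a, the coactivator, went the other way. It was at 45.8, 46.8 and 58.0 CPM without injury, 43.1, 45.7 and 28.8 CPM at 48 h and 57.8, 75.2 and 73.3 CPM at d14. All 48 h libraries lay below the uninjured ones, narrowly at the closest, while d14 replicate 1 lay within the uninjured range. It rose by 0.82 ± 0.18 on the log2 scale from 48 h to d14 (edgeR adjusted p = 0.00608), a call that held under all 18 alternatives. Against uninjured cells it was at -0.36 ± 0.18 at 48 h (adjusted p = 0.157) and 0.45 ± 0.18 at d14 (adjusted p = 0.0569). The latter was called in 7 of 18 alternatives, with log2 values from 0.36 to 1.01 and adjusted p from 1.46e-04 to 0.210. The related coactivator gene Ppargc1b was at 10.8, 8.47 and 8.26 CPM and was called in no comparison.

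The ratio of Ppargc1a to Esrra per kb, a pair added after the values were seen, was 0.281 ± 0.050 without injury, 0.274 ± 0.0888 at 48 h and 0.760 ± 0.0353 at d14. Each d14 library lay at or above 0.719 and each other library at or below 0.376. Ppargc1a to Ppargc1b went from 2.83 ± 0.393 and 2.92 ± 0.947 to 5.16 ± 0.710 at d14, again without overlap. Esrra to its relative Esrrg stood at 2.64 ± 0.508, 2.49 ± 0.909 and 1.09 ± 0.0591, with d14 below both other groups. Esrrg was at 64.9 ± 6.68, 57.1 ± 3.53 and 78.2 ± 11.3 CPM and rose by 0.45 ± 0.13 from 48 h to d14 (edgeR adjusted p = 0.022). With 3 libraries against 3, the exact two-sided permutation test of a ratio cannot go below p = 0.1, the value of every ratio without overlap, and adjusted over 18 comparisons that is 0.164.

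**Figure D4:**
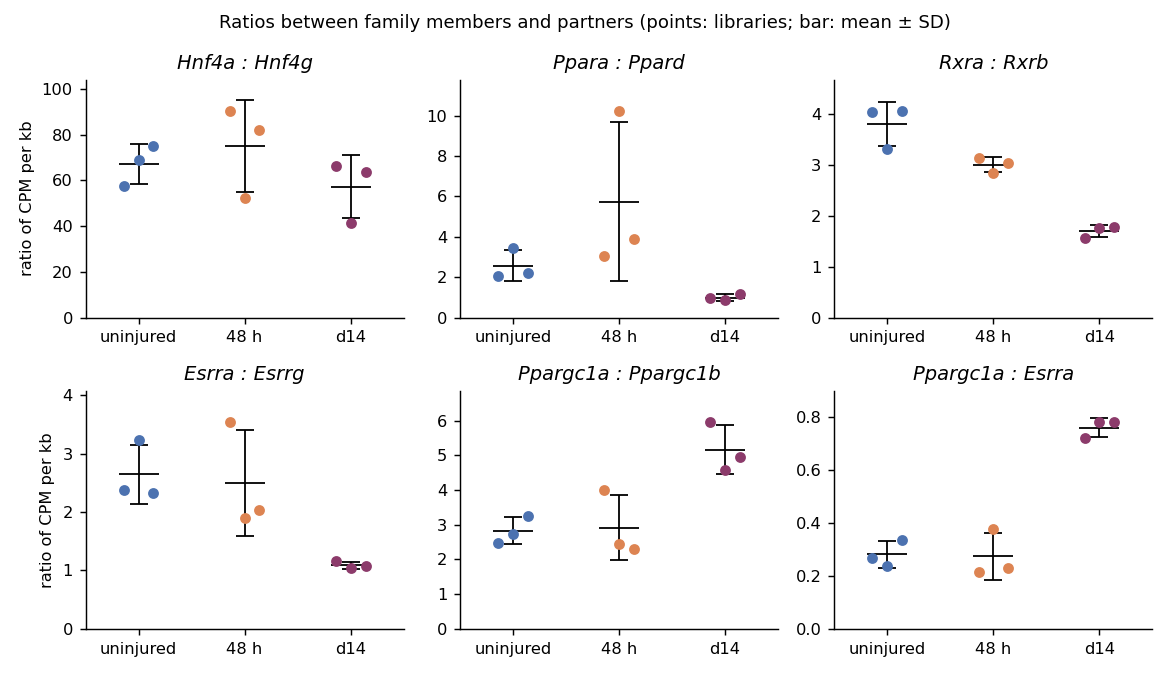
Ratios of CPM per kb of exon between paralogs or partners in each library (points) with the mean and SD of each group (bar), on linear axes from 0. The d14 libraries lie below the uninjured ones for Ppara to Ppard, Rxra to Rxrb and Esrra to Esrrg and above them for both Ppargc1a ratios, while Hnf4a to Hnf4g overlaps between groups.

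At 48 h, 15 of 30 targets shared by PGC-1alpha and ERRA in respiration and the citric acid cycle were lower and 2 higher, with a median log2 fold change of -0.34. The count lower fell to 8 without 48 h replicate 3 or without uninjured replicate 1, and to 9 without uninjured replicate 3. With the mitochondrially encoded genes removed before scaling, 15 of the 30 were lower at 48 h, 25 at d14 against uninjured cells and 17 at d14 against 48 h. At d14 24 were lower and none higher than in uninjured cells (median -0.66). Against 48 h, 15 were lower and none higher (median -0.36). Over all genes, 11.7% were lower and 17.4% higher at 48 h, and 20.7% and 25.1% at d14. Against 48 h these shares were 16.3% and 16.8%. With library size as the only scaling, however, the counts of targets at d14 turned to 6 lower and 4 higher than in uninjured cells. Against 48 h they turned to 1 lower and 11 higher. Sod2, the mitochondrial superoxide dismutase, fell by 0.68 ± 0.14 at 48 h (edgeR adjusted p = 0.00375) and by 1.30 ± 0.14 at d14 (adjusted p = 1.95e-05). The respiratory chain genes Ndufs1 (complex I) and Sdha (complex II) fell by 0.66 ± 0.11 and 0.72 ± 0.13 at 48 h (adjusted p = 0.00137 and 0.00166). Uqcrfs1, the Rieske protein of complex III, fell by 0.94 ± 0.11 at d14 (adjusted p = 4.12e-05). Cycs, which encodes cytochrome c, fell by 1.14 ± 0.20 from 48 h to d14 (adjusted p = 0.00172), the step over which Ppargc1a rose. The ATP carrier gene Slc25a4 was higher at 48 h (0.76 ± 0.18, adjusted p = 0.0103), as was Idh3a of the citric acid cycle (0.40), which was chosen after its value was seen.

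Maf was at 564, 687 and 681 CPM without injury, 370.1, 291 and 231 CPM at 48 h and 139.5, 204 and 150.2 CPM at d14, with no overlap between groups. It had the largest fall of the 8 factors at 48 h, with -1.11 ± 0.19 (edgeR adjusted p = 0.00164), and stood at 46.2% of the uninjured level. At d14 it was lower by -1.97 ± 0.20 on the log2 scale than in uninjured cells (adjusted p = 1.33e-05). The step from 48 h to d14 was -0.85 ± 0.19 (adjusted p = 0.00686), and -0.28 and not called with library size as the only scaling. Gpx3 was at 31963 ± 2332 CPM in uninjured cells, 20498 ± 3579 CPM at 48 h and 5332 ± 834 CPM at d14. It fell by 0.64 ± 0.21 at 48 h (adjusted p = 0.0396), a call lost when any uninjured library, 48 h replicate 1 or 3, or d14 replicate 2 was left out, with values from -0.70 to -0.56. The fall at d14 was 2.58 ± 0.22 (adjusted p = 3.69e-06).

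**Figure D5:**
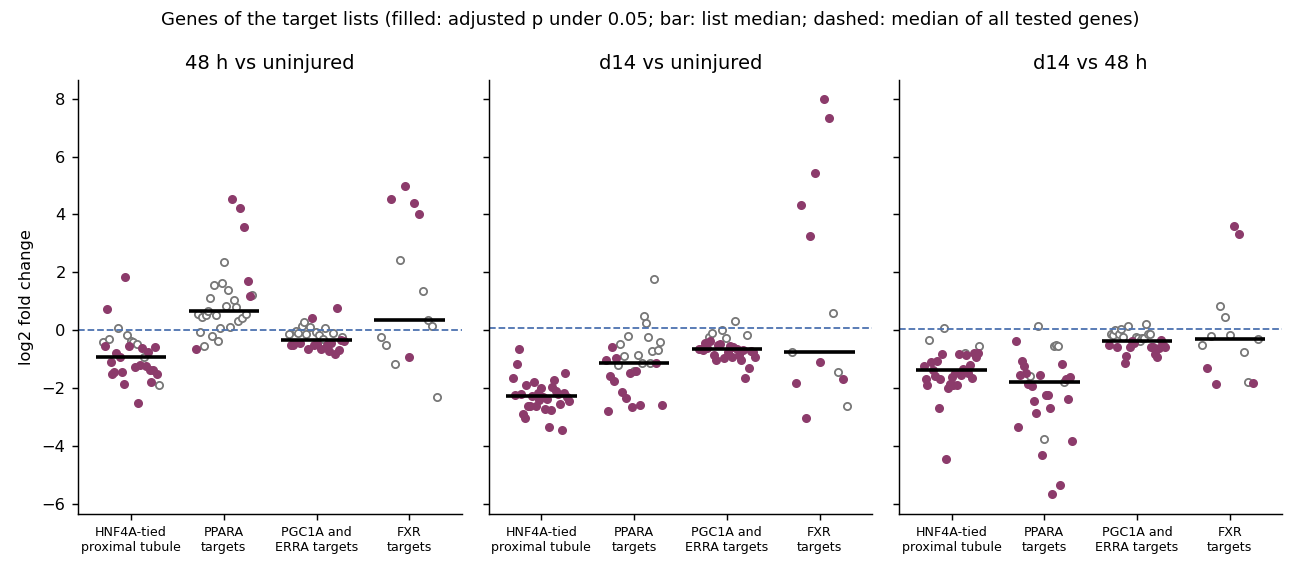
Log2 fold changes of single genes (points, filled where the adjusted p was under 0.05) in the lists tied to HNF4A, PPARA, PGC-1alpha with ERRA, and FXR, with each list's median (bar) and that of all tested genes (dashed line). The HNF4A list lies below 0 throughout at d14, the PPARA list lies mostly above 0 at 48 h and below 0 at d14, and Kng1 and Nr0b2, the highest FXR points at d14, had few or no counts in uninjured cells.

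Other nuclear receptors split between directions. Of 31 tested, 2 were higher (Nr4a1 and Nr0b2) and 10 lower at 48 h, and 6 higher and 11 lower at d14. At 48 h the counts ran from 1 to 5 higher and from 7 to 12 lower over the alternatives. Nr0b2 rested on 3, 0 and 8 counts at 48 h. With library size as the only scaling the d14 split turned to 15 higher and 5 lower. The shares over all genes were 17.4% higher and 11.7% lower at 48 h, then 25.1% and 20.7% at d14. The shares of receptors called higher were below these at both times. Against 48 h, 9 were higher and 4 lower at d14, beside 16.8% and 16.3% of all genes. The 4 included Nr1h3 and, chosen after their values were seen, Rxrg and Nr1i2. With library size only, 17 were higher and 2 lower. Nr1d1, which encodes the clock repressor REV-ERB alpha, fell by 1.94 ± 0.18 at 48 h (edgeR adjusted p = 2.44e-05), and Nr4a1, an immediate early receptor gene, rose by 2.86 ± 0.51 (adjusted p = 0.00189). Nr3c2, the mineralocorticoid receptor gene of the distal nephron, was at 6.06 ± 1.08 CPM in uninjured cells, 8.82 ± 1.94 CPM at 48 h and 34.0 ± 1.21 CPM at d14, a rise of 2.49 ± 0.19 (adjusted p = 1.82e-06). Nr1h3, which encodes the oxysterol receptor LXR alpha, fell by 1.52 ± 0.17 at d14 (adjusted p = 2.76e-05).

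Of 19 coregulators of nuclear receptors, 1 was higher at 48 h (Pprc1, a relative of Ppargc1a). Another 2 were lower (the coactivator genes Ncoa2 and Ncoa7). The count higher at 48 h was 0 when any uninjured library or 48 h replicate 3 was left out. Over all genes 17.4% were higher and 11.7% lower, so the share of coregulators lower was near that of all genes. At d14, 10 were higher and 3 lower than in uninjured cells (Lpin1, Ncoa7 and, chosen after its value was seen, Ncoa4), beside 25.1% and 20.7% of all genes. Without uninjured replicate 1, or without uninjured replicate 2, 6 were higher. Against 48 h, 7 were higher and 2 lower (Lpin1 and Ncoa4), beside 16.8% and 16.3% of all genes. With library size as the only scaling, 14 were higher and 0 lower than at 48 h. The count lower than at 48 h ran from 0 to 2 over all alternatives. Crebbp, an acetyltransferase gene, rose by 0.84 ± 0.17 from 48 h to d14 (edgeR adjusted p = 0.0035). Lpin1, which encodes lipin 1, a coactivator of PGC-1alpha and PPARA, fell by 1.64 ± 0.27 at d14 (adjusted p = 6.74e-04).

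Of 25 other tubule identity factors, 13 were higher and 5 lower at 48 h and 16 higher and 5 lower at d14 (17 and 2 with library size as the only scaling). Over all genes, 17.4% and 11.7% were called at 48 h and 25.1% and 20.7% at d14, so the share lower at d14 was near that of all genes. Tfap2b, of the distal nephron, went from 2.71 over 25.0 to 120 CPM and rose by 5.50 ± 0.29 at d14 (edgeR adjusted p = 2.49e-07). Gata3, of the collecting duct, went from 1.17 over 14.2 to 58.9 CPM, and the developmental factor Pax2 from 19.4 over 26.0 to 56.3 CPM. The genes called lower in both comparisons with uninjured cells included, chosen after their values were seen, Mafg, Mafk and Cux1, of which Mafk and Cux1 turned to above 0 at d14 with library size as the only scaling (0.21 and 0.03). These rises of distal factors stand beside the rise of distal segment markers given above, whose part in them was not tested.

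For each factor, the genes with the most similar course were sought by the root mean square difference of centred log2 CPM over the 9 libraries, among 8711 genes of at least 10 CPM (8712 for Hnf4g). The likeness rests on group differences common to many genes and is a description. Hnf4a was closest to Qdpr (0.098 log2 units) and Slc25a15 (0.106), and Esrra to Klc4 (0.057) and Ndel1 (0.099). Rxra was closest to Sod2 (0.090) and Exoc6 (0.094), Maf to Smim24 (0.118) and Rab11fip3 (0.131) and Hnf4g to Pde9a (0.113) and Fgfr3 (0.132). Ppargc1a was closest to the zinc finger genes Zbtb5 (0.148) and Zfp398 (0.150), and Nr1h4 to Sh3bp5 (0.169) and Acadm (0.171). One of the 2 closest to Ppara was Adra2b (0.250), an adrenergic receptor gene. Within the 8 factors, Esrra and Rxra had the smallest difference (0.193) and Ppara and Ppargc1a the greatest (1.33).

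As a further scaling added after the values were seen, each factor was given per 1000 CPM of the summed proximal tubule markers. On this scale no factor had all its 48 h or d14 libraries below the uninjured ones. At 48 h Ppargc1a, Esrra, Rxra and Nr1h4 lay above the uninjured libraries without overlap and the other 4 overlapped. At d14 Ppargc1a, Esrra and Rxra lay above them and the other 5 overlapped. Hnf4a was at 57.1 ± 6.95 without injury, 91.6 ± 29.3 at 48 h and 69.8 ± 17.9 at d14. Maf was at 36.4 ± 6.32, 41.8 ± 13.5 and 43.0 ± 7.69. Ppara was at 3.25 ± 0.311, 7.95 ± 7.74 and 3.08 ± 0.566. Ppargc1a was at 2.82 ± 0.370, 5.74 ± 2.83 and 17.9 ± 1.39, and was the one factor whose d14 libraries also lay above those at 48 h. These ratios compare the factors with RNA of the same markers and give no level per cell. The markers include Slc34a1, by which uninjured cells were marked. They also share genes with the list tied to HNF4A, among them Lrp2, Cubn, Slc22a8 and Fbp1. By construction, a fall that a factor shares with these markers does not show on this scale.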

How the data were processed

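RNA-seq of tdTomato-positive cells sorted from digested cortex and outer medulla yielded the authors' deposited table of estimated counts per gene (expected counts), all of them whole numbers. The submitters' processing notes name RSEM 1.2.28 and STAR 2.6.1, besides bcl2fastq 2.20, R 3.6.3 and DESeq2 1.26.0, and the builds mm10 and GRCh38 without roles. The sources used here state neither annotation release nor strand setting. The 92 spike-in rows held 0 counts and were left out.

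Genes were filtered (edgeR filterByExpr, minimum count 10, minimum total 15), leaving 15519 of 55385, and fitted over all 9 libraries by group with edgeR 4.0.16 (TMM, robust quasi-likelihood, R 4.3.3) with Benjamini-Hochberg adjustment and a threshold of 0.05. Standard errors were derived from this fit, as the absolute log2 fold change divided by the square root of the quasi-likelihood F statistic. On counts simulated for 48 h against uninjured (15519 genes), it called 36 of 100 genes changed by 1 on the log2 scale and 69 of 100 changed by 2. Alternatives were DESeq2 1.42.0, limma 3.58.1 (voom), other scalings and filters, a replicate block, only the compared groups, and each library left out. Positions and exon lengths came from GENCODE M21 (GRCm38), where 54487 IDs matched with their version and 55144 without it. Depth was 8036054 to 51631204 counts.

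The 8 genes and all lists were chosen with earlier results of these data known. From each list up to 4 called genes with the smallest adjusted p per comparison are named, beside paralogs, Nr0b2, Gpx3, Slc34a1 and Sox9, and others are said to have been chosen after their values were seen. Some genes that this rule names are not reported here. Listed genes that did not pass the filter were Nr5a2, Nr2f1, Nr4a3, Creb3l3, Fgf21, Abcb11, Fgf15, Sult2a8 and Apoa1. Replicates are labelled as biological, without a statement on pooling of animals.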

Additional observations from a re-analysis of the deposited data

Results flagged for a closer look

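Ppargc1a had values of opposite sign against uninjured cells at the 2 times, neither of them called. At 48 h the log2 fold change was -0.36 (edgeR adjusted p = 0.157), with all 3 libraries below the uninjured range. At d14 it was 0.45 (edgeR adjusted p = 0.0569), with d14 replicate 1 inside that range. The difference between d14 and 48 h was tested and was 0.82 ± 0.18 (edgeR adjusted p = 0.00608), with 3 of 3 d14 libraries above every 48 h library. Summed markers of the thick limb and of the distal tubule were also highest at d14, and their part in this result was not tested.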

How the results depend on the processing

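Of 432 values of the 8 factors under the alternatives, 404 kept their direction and their side of the threshold, 15 lost the call, 13 gained it and 0 reversed. At 48 h, 5 of 8 were called with limma voom, and 3 to 5 when single libraries were left out (5 without 48 h replicate 2). With library size as the only scaling, the median of all genes moved to 0.63 in both d14 comparisons. Then 7746 genes were called between d14 and 48 h (6812 higher and 934 lower, against 2604 and 2533 with TMM), and 4 of the 8 factors (1 higher, 3 lower). Against uninjured cells the d14 split moved to 7315 higher and 1417 lower, from 3898 and 3214.

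Under that scaling these log2 values turned positive at d14 against uninjured cells: Cux1 0.0316, Mafk 0.21, Ncoa2 0.30, Ncoa4 0.0319, Ppargc1b 0.16, Rxrb 0.40, Slc25a20 0.14 and Slc25a4 0.41. Against 48 h so did Acaa1a 0.18, Aqp2 0.37, Cux1 0.44, Fgfr4 0.41, Idh3a 0.19, Mafg 0.18, Ncoa4 0.0848, Ncoa7 0.32, Ndufs1 0.28, Ppargc1b 0.53, Pprc1 0.49 and Sdha 0.43. Idh3a at d14 against uninjured cells (0.02) was -0.0266 without the filter, -0.0397 without mitochondrially encoded genes, -0.0190 with only those groups, and -0.0644 to 0.0616 with single libraries left out (below 0 without uninjured replicate 2 or d14 replicate 3). Ppargc1b against 48 h was 0.13 with voom and -0.17 to 0.23 with single libraries left out (above 0 without 48 h replicate 2 or d14 replicate 1). At 48 h against uninjured cells, leaving out single libraries gave -0.24 to 0.0367 for Ncoa4 (above 0 without uninjured replicate 3, 48 h replicate 1 or 48 h replicate 3) and -0.11 to 0.0485 for Nr1i2 (above 0 without 48 h replicate 1). At d14 against 48 h it gave -0.0504 to 0.81 for Fetub and -0.34 to 0.0465 for Fgfr4 (turned without 48 h replicate 1), and -0.41 to 0.0741 for Pprc1 (above 0 without d14 replicate 3). The cause of these reversals was not tested.

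In uninjured cells the ratio of Hnf4a to Hnf4g was 113 by coding length. Ppargc1a to Ppargc1b was 5.98 by coding length. Ppara to Ppard was 1.43 by the longest transcript and 1.23 by coding length, Esrra to Esrrg 4.03 and 2.03, and Rxra to Rxrb 2.79 and 5.85. Same-numbered libraries did not deviate together (correlations -0.127 to 0.0190). The labels state no pairing of the numbers, and whether same-numbered libraries shared a batch was not tested. With a replicate block, 3, 7 and 7 of the 8 factors were called, and 3818, 6615 and 4414 genes in all.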
